A study of Homo sapiens with 8 samples.

Results

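The 9 genes described here are the receptors and GLI transcription factors of the Hedgehog pathway: the ligand receptor PTCH1, the co-receptors BOC and GAS1, the transducer SMO, the transcription factors GLI1, GLI2 and GLI3, the GLI inhibitor SUFU and the ligand trap HHIP. They were chosen by symbol from the expression table, which held all 9 among 21059 genes. The rule is a list of symbols and has no threshold on a measured value. RNA was sequenced from MDA-MB-157, a human breast tumor cell line that is estrogen receptor (ER) negative, after 48 hours at 5 mM glucose (low glucose; replicates LG1 to LG4) or at 25 mM glucose (high glucose; replicates HG1 to HG4), with 4 libraries in each group. Cells of both groups were grown in T25 flasks and, per the methods of the study, without serum, and no library with an osmotic control is among the 8. The comparison asks how transcript levels differ in a breast cancer line between a lower glucose concentration and one chosen to model hyperglycemia. This is 1 line, and the sources do not say whether the replicates were separate cultures, so the p-values measure the spread between these libraries, which may be technical.

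In the Hedgehog pathway, a secreted ligand binds PTCH1 and its co-receptors at the primary cilium, a sensory projection of the cell surface, and releases SMO from inhibition. Active SMO keeps GLI2 and GLI3 from being processed or held back by SUFU, so that they act as activators, whereas without ligand GLI3 in particular is cut to a repressor. GLI1, PTCH1 and HHIP are themselves transcribed in response to the pathway in many tissues, and their RNA is often read as a measure of its activity.

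Sequence from the start region of the genes was taken from RefSeq on GRCh38.p14, in windows of 300 bases that run from 250 bases before to 50 bases after a transcript start. Windows were available here for 7 of the 9 genes, 13 windows in all, and not for GLI1 or GLI3. The GLI consensus GACCACCCA was searched on both strands (TGGGTGGTC on the other strand), and it overlaps no other motif searched. It was found in 1 of the 13 windows and in 83 of 35116 windows of all genes, or 0.2364%. The window with the match is printed first here, because PTCH1 is a target of GLI factors as well as the receptor. It lies on the minus strand at chr9:95509217-95509516, and the capitals mark the match, at positions 79 to 87 of the window. The match ends 164 bases before the start of that window, at 95509266. PTCH1 has 5 of the 13 windows, each with its own start, and the start furthest upstream is at 95516971. The other windows of PTCH1 hold no match. The second is the window of SMO, the gene of the 9 with the largest difference between the groups, on the plus strand at chr7:129188383-129188682, and it holds no match, so it has no capitals.
PTCH1: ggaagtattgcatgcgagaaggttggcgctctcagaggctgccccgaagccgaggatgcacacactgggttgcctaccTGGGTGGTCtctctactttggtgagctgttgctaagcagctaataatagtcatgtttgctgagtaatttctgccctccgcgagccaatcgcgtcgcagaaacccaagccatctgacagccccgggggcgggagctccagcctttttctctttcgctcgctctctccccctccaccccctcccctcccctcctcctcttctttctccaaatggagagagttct
SMO: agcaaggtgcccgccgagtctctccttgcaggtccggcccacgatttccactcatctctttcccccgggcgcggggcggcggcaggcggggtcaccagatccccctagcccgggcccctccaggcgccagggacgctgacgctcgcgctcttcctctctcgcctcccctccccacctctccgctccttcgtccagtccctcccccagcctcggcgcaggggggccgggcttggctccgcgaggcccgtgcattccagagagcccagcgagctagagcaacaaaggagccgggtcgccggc
The E-box CACGTG, a palindrome and the core of the carbohydrate response element, was in none of the 13 windows and in 7.256% of all windows. A match describes letters in a window, and the absence of a match says only that these letters are not there. The 13 windows had a median GC content of 61.67% and a median of 22 CpG dinucleotides, between 7 and 36, and all windows had medians of 58.67% and 14.

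Values are CPM (reads of a gene per 1000000 reads) after TMM scaling by the authors. Differences are high minus low glucose on the log2(CPM + 1) scale, which understates the change of low genes. Errors of means are SD over 4 libraries. The adjusted p-values are from limma with Benjamini-Hochberg adjustment over all 21059 genes, and a gene was called where this p was under 0.05. Exact permutation tests were 2-sided over 70 assignments of the 8 libraries, with 0.0286 as the smallest p they can give. Estimated depth was 9721645 to 12482537 reads in a library. There 1 read was worth 0.0706 to 0.0889 CPM and 3 reads 0.212 to 0.267 CPM. These depths cover counting error only. HG1 stood apart from HG2, HG3 and HG4: its deviation from them across 11223 genes had a rank correlation of -0.65 with transcript length, against -0.13 to 0.06 in the low glucose libraries and 0.25 to 0.47 in the other high glucose libraries. Longer transcripts were thus lower in HG1. ESR1, the estrogen receptor gene, was at 0.121 ± 0.0811 CPM in low glucose and 0.0598 ± 0.0406 CPM in high glucose, under the value of 3 reads in every library, and the epithelial markers on the list differed among themselves. The keratins KRT8 (131 ± 5.95 and 88.3 ± 10.3 CPM) and KRT18 (233 ± 4.85 and 170 ± 18.1 CPM) fell, EPCAM rose from 4.50 ± 0.414 to 6.996 ± 0.445 CPM, CDH1 was near 1 CPM in the mean of each group, and KRT19 was under the value of 3 reads in every library. Of 7 genes that mark fibroblasts and pericytes, 6 were called lower in high glucose, beside 24.8% of all genes. None of the 7 was at 0 in all libraries. Their sum was 21688 to 22436 CPM in low and 7427 to 8034 CPM in high glucose, most of it from COL3A1 (17321 ± 289 and 5681 ± 165 CPM). RGS5, the pericyte marker that did not pass, was at 0.166 to 1.69 CPM. The expression data held 4 of 8 leukocyte markers, which summed to 10.7 to 14.3 CPM in low and 13.3 to 18.0 CPM in high glucose. Most of this sum came from CD68 (11.1 ± 1.72 and 12.1 ± 1.72 CPM), and CD14 was called higher (1.25 ± 0.337 and 4.24 ± 1.33 CPM). Endothelial markers, 5 of 6 in the data, summed to 3.99 to 4.50 and 4.07 to 5.60 CPM. Their sum hides changes in both directions. PECAM1 (difference 0.63) and KDR (0.56) were called higher, and VWF (-0.95) and CDH5 (-0.32) lower. CDH5 was near or under the value of 3 reads in every library (0.278 ± 0.130 and 0.0206 ± 0.0412 CPM). VWF was at 1.45 ± 0.0904 CPM in low and 0.310 ± 0.417 CPM in high glucose, so both calls rest on few reads. The part of these shifts in the results below was not tested, and in RNA from whole cultures a change in the share of a kind of cell and a change of RNA per cell cannot be told apart.

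High glucose went with less RNA of the transducer SMO, of the co-receptors BOC and GAS1 and of GLI2, and with more RNA of GLI3. Of the 9 genes, 5 were called, 1 higher and 4 lower. Across all genes tested, 46.8% were called, 22.0% higher and 24.8% lower, so that a call by itself is common in this comparison. The median difference of the 9 genes was -0.33, beside -0.0092 over all genes. All 9 had a mean of at least 1 CPM, and over the 14372 genes at that level the median was -0.0417. The shares over all genes count the genes under 1 CPM too, 856 of them at 0 in every library. The other 4 of the 9 genes, PTCH1, GLI1, SUFU and HHIP, did not pass. Without HG1, 7 of the 9 were called, 3 higher (PTCH1, GLI3 and SUFU) and 4 lower, beside 48.2% of all genes, 22.8% higher and 25.4% lower. The groups did not overlap for 5 genes, all 5 lower in high glucose (SMO, GLI1, GLI2, GAS1 and BOC), against 44.5% of all genes with no overlap, 20.9% higher and 23.6% lower.

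**Figure D1:**
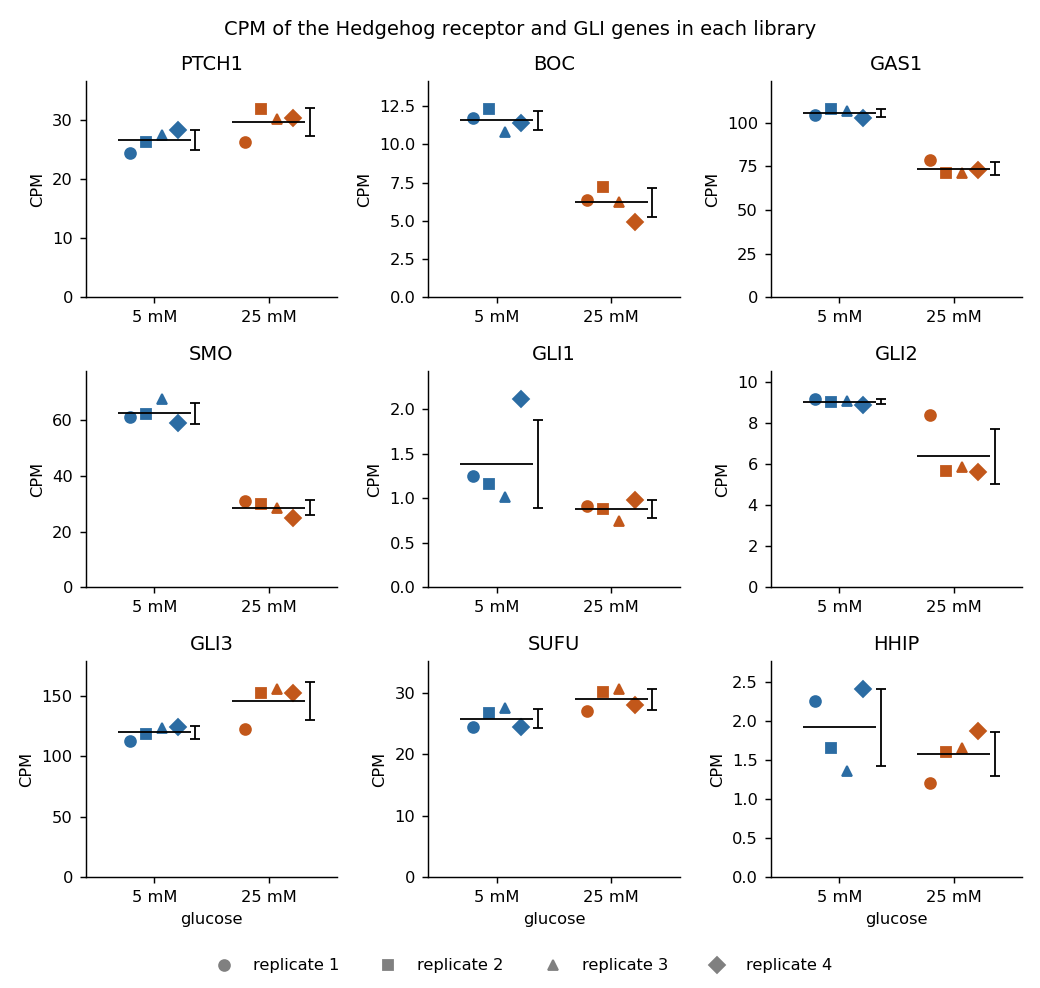
CPM of the 9 genes (vertical axes, each from 0) at 5 mM and 25 mM glucose, with a point for each library, shaped by replicate, a line at the mean and a bar of 1 SD on each side. SMO, BOC and GAS1 form separate groups, whereas HG1 (the circle) lies near the low glucose libraries for GLI2 and GLI3.

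PTCH1 (ENSG00000185920.15, chr9:95442980-95516971, minus strand), which binds the ligand and holds SMO inactive in its absence, was read at 24.3, 26.3, 27.5 and 28.3 CPM in LG1 to LG4 and at 26.3, 31.8, 30.2 and 30.4 CPM in HG1 to HG4. Of the high glucose libraries 3 lay above all low glucose ones and HG1 lay among them, so the groups overlapped. The means were 26.6 ± 1.71 and 29.7 ± 2.36 CPM, a difference of 0.15 (SE 0.069, 95% interval -0.01 to 0.31, limma adjusted p = 0.121). The call depended on HG1: without it the difference was 0.21 and the adjusted p 0.0217. With the trend of each library with transcript length removed, the difference was 0.15, the adjusted p 0.0356, and on that log2 scale LG1 to LG4 lay at 4.68 to 4.86 and HG1 to HG4 at 4.89 to 5.00.

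BOC (ENSG00000144857.14, chr3:113210926-113287459, plus strand), a cell surface co-receptor of the immunoglobulin superfamily that binds Hedgehog ligands, fell. Its levels were 11.7, 12.3, 10.8 and 11.4 CPM in LG1 to LG4 and 6.40, 7.22, 6.25 and 4.96 CPM in HG1 to HG4. Every high glucose library was below every low glucose library. High glucose was at 0.536 of the low glucose mean (6.21 ± 0.933 against 11.6 ± 0.609 CPM), a difference of -0.81 (SE 0.102, 95% interval -1.05 to -0.57, limma adjusted p = 5.4e-04). Exons of CFAP44 on the other strand cover 11.6% of the BOC transcript, and the use of the strand in counting is not given in the sources used here. CFAP44 itself was at 0.368, 0.504, 0.816 and 0.568 CPM in LG1 to LG4 and at 0.814, 0.831, 0.4998 and 1.02 CPM in HG1 to HG4, below BOC in all 8 libraries.

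GAS1 (ENSG00000180447.7, chr9:86944362-86947506, minus strand), a membrane-anchored co-receptor, also fell, by less than BOC or SMO. LG1 to LG4 gave 104.5, 107.7, 106.4 and 102.6 CPM, and HG1 to HG4 gave 78.9, 71.1, 71.4 and 73.0 CPM. The groups were far apart relative to their spread, 105.3 ± 2.24 against 73.6 ± 3.63 CPM, or 0.699 of the low glucose mean. The difference was -0.51 (SE 0.036, 95% interval -0.60 to -0.43, limma adjusted p = 3.5e-05). GAS1 has the shortest transcript of the 9, 3145 bases, and with the length trend removed the difference was -0.50.

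SMO (ENSG00000128602.10, chr7:129188633-129213545, plus strand), the membrane protein that passes the signal on once PTCH1 releases it, showed the largest difference of the 9 genes. It was read at 61.3, 62.0, 67.5 and 58.9 CPM in LG1 to LG4. In HG1 to HG4 it was read at 30.8, 30.0, 28.6 and 24.7 CPM. The lowest low glucose library was therefore well above the highest high glucose library. The means of 62.4 ± 3.66 and 28.5 ± 2.71 CPM gave a ratio of 0.457 and a difference of -1.11 (SE 0.075, 95% interval -1.28 to -0.93, limma adjusted p = 2.8e-05). Leaving out each library in turn gave differences between -1.14 and -1.04, all of them called.

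Because PTCH1 restrains SMO, their levels were set against each other within each library. SMO was at 2.52, 2.36, 2.46 and 2.08 times the CPM of PTCH1 in LG1 to LG4, and at 1.17, 0.944, 0.949 and 0.813 times in HG1 to HG4. The ratio was thus lower in every high glucose library than in any low glucose library. The mean ratio was 2.35 ± 0.194 in low and 0.970 ± 0.149 in high glucose, and the log2 ratio differed by -1.26 (exact permutation p = 0.0286, 4 against 4 libraries, the smallest that can be reached). CPM are not divided by transcript length, so the ratio serves only to compare the groups.

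GLI1 (ENSG00000111087.10, chr12:57459785-57472268, plus strand), an activator and the GLI factor that the pathway itself induces, was close to the limit of what these libraries resolve. It was at 1.25, 1.16, 1.02 and 2.11 CPM in LG1 to LG4, from about 15, 14, 12 and 29 reads, and at 0.918, 0.877, 0.742 and 0.978 CPM in HG1 to HG4, from about 13, 11, 9 and 11 reads. All 4 high glucose libraries were below all 4 low glucose libraries, by a narrow margin. The difference was -0.33 (SE 0.136, 95% interval -0.65 to -0.0044, not adjusted), and it did not pass the test over all genes (limma adjusted p = 0.0910). An exact permutation test of GLI1 alone, not adjusted over genes, gave the smallest p possible, 0.0286. Summed over libraries and divided by depth, the ratio of high to low glucose was 0.622 (exact 95% interval 0.417 to 0.920, counting error only), and without LG4 the difference was -0.19.

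GLI2 (ENSG00000074047.21, chr2:120735868-120992653, plus strand), the main activator in most tissues, fell. LG1 to LG4 lay close together at 9.17, 9.03, 9.09 and 8.89 CPM, and HG1 to HG4 were at 8.40, 5.66, 5.86 and 5.60 CPM. HG1 was just under the low glucose libraries, and HG2, HG3 and HG4 were well below it. The means were 9.04 ± 0.119 and 6.38 ± 1.35 CPM, a difference of -0.46 (SE 0.120, 95% interval -0.74 to -0.18, limma adjusted p = 0.0166). Without HG1 the difference was -0.58 and the adjusted p 1.2e-04. GLI2 has a transcript of 7136 bases. With the length trend removed HG1 was at 3.36 on the log2 scale, inside the low glucose range of 3.30 to 3.37, and HG2 to HG4 at 2.65 to 2.73.

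GLI3 (ENSG00000106571.14, chr7:41960949-42264268, minus strand), the main repressor when SMO is inactive, was the only one of the 9 genes called higher. It was at 112.9, 118.4, 123.7 and 124.5 CPM in LG1 to LG4 and at 122.7, 152.5, 155.6 and 152.3 CPM in HG1 to HG4. HG1 lay inside the low glucose range and the other 3 high glucose libraries above it. The means were 119.9 ± 5.38 and 145.8 ± 15.5 CPM, a ratio of 1.22 and a difference of 0.27 (SE 0.081, 95% interval 0.08 to 0.47, limma adjusted p = 0.0270). This call was not firm. Leaving out LG1, LG2, HG2, HG3 or HG4 gave differences of 0.24 to 0.27 with adjusted p-values of 0.0638 to 0.0712, quantile normalization gave 0.16 with an adjusted p of 0.152, and the exact permutation p was 0.0857. Without HG1 the difference was 0.35 and the adjusted p 4.4e-04. With the length trend removed, HG1 was at 7.11 on the log2 scale, above the low glucose range of 6.85 to 6.96, and the 2 groups no longer overlapped.

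The level of GLI2 relative to GLI3 fell in high glucose. In LG1 to LG4 the GLI2 CPM were 0.0812, 0.0762, 0.0735 and 0.0714 of the GLI3 CPM, and in HG1 to HG4 they were 0.0685, 0.0371, 0.0376 and 0.0368 of it. HG2, HG3 and HG4 were nearly alike, and HG1 was just below the low glucose libraries. The mean went from 0.0756 ± 0.00426 to 0.0450 ± 0.0157, and the log2 ratio differed by -0.74 (exact permutation p = 0.0286, 4 against 4 libraries). Under quantile normalization the difference was -0.48 and the exact permutation p 0.114.

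**Figure D2:**
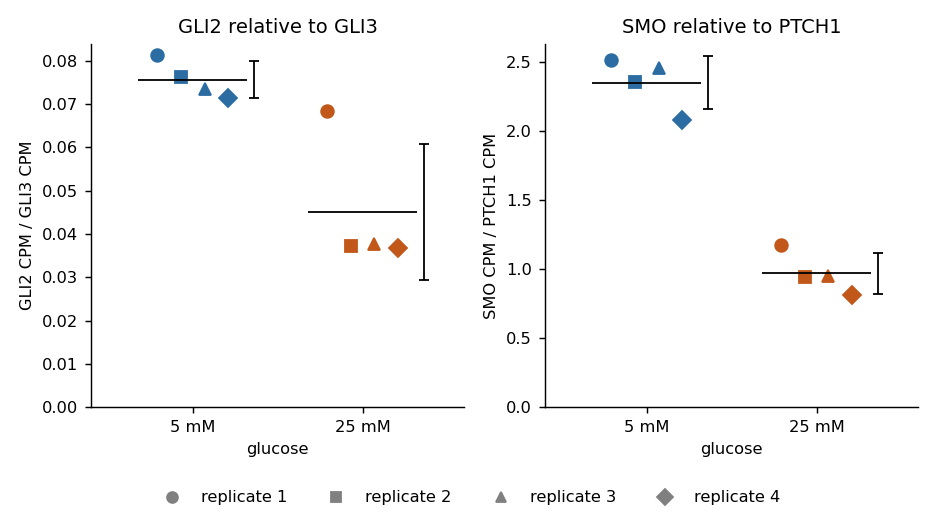
GLI2 CPM divided by GLI3 CPM and SMO CPM divided by PTCH1 CPM (vertical axes, from 0) in each library at 5 mM and 25 mM glucose, with points shaped by replicate, a line at the mean and a bar of 1 SD on each side. Both ratios are lower in all 4 high glucose libraries, and HG1 (the circle) is the closest to the low glucose libraries in both.

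SUFU (ENSG00000107882.11, chr10:102502819-102633535, plus strand), which binds GLI factors and keeps them out of the nucleus, was at 24.5, 26.8, 27.6 and 24.4 CPM in LG1 to LG4. In HG1 to HG4 it was at 27.0, 30.1, 30.6 and 28.0 CPM. Of the high glucose libraries only HG1 lay within the low glucose range. The means were 25.8 ± 1.61 and 28.9 ± 1.70 CPM, a difference of 0.16 (SE 0.057, 95% interval 0.02 to 0.29, not adjusted), and the limma adjusted p was 0.0572, just outside the threshold. Without HG1 it was called (0.19, adjusted p = 0.0346), as it was without LG3 (0.19, adjusted p = 0.0405).

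HHIP (ENSG00000164161.10, chr4:144646156-144745271, plus strand), a membrane protein that captures Hedgehog ligands and a target of the pathway, was near the lower limit like GLI1. It was at 2.25, 1.66, 1.36 and 2.40 CPM in LG1 to LG4 and at 1.20, 1.59, 1.65 and 1.87 CPM in HG1 to HG4, from 16 to 33 reads per library. The groups overlapped widely. The difference was -0.17 (SE 0.142, 95% interval -0.50 to 0.16, limma adjusted p = 0.383), and summed over libraries the ratio of high to low glucose was 0.804 (exact 95% interval 0.589 to 1.10, counting error only). These bounds leave room for a substantial fall as well as for a small rise. With LG3, LG4 or HG1 left out, the difference was -0.27, -0.09 and -0.10, none of them called.

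Of the 3 genes whose RNA is itself read as a measure of the pathway, PTCH1, GLI1 and HHIP, none passed the test, and their differences had different signs: 0.15, -0.33 and -0.17. With median-of-ratios scaling they were 0.19, -0.30 and -0.14. Without HG1 they were 0.21, -0.34 and -0.10, and PTCH1 was then called (limma adjusted p = 0.0217), as it was with the length trend removed (0.0356) and with the replicate number as a block (0.0438). No pairing of the samples by replicate number was seen, as described below, so nothing is drawn from the call with that block.

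**Figure D3:**
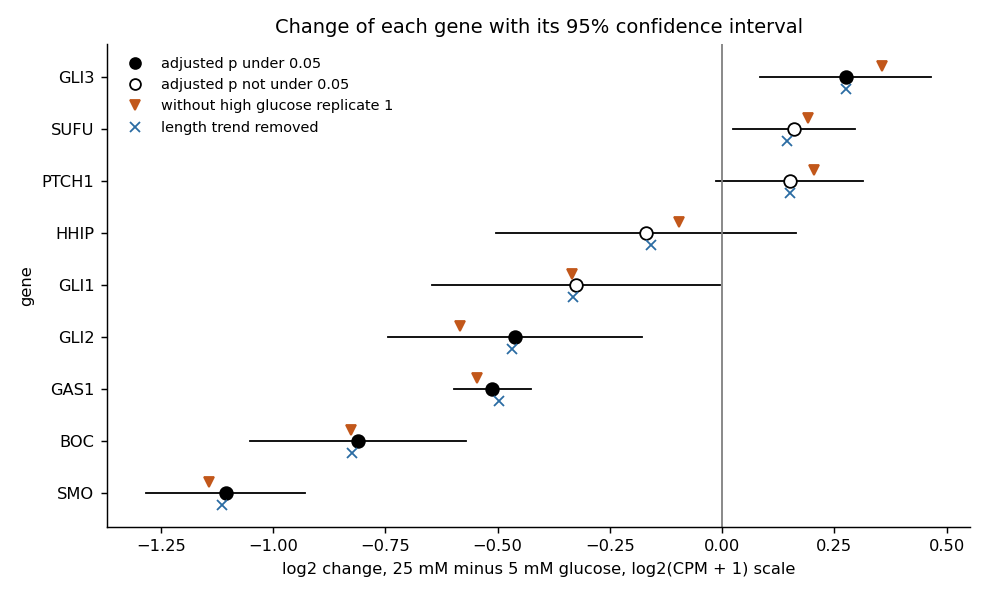
Difference of each of the 9 genes, high minus low glucose on the log2(CPM + 1) scale (horizontal axis), as a circle with its 95% confidence interval, filled where the adjusted p was under 0.05. Triangles give the difference without HG1 and crosses that with the length trend removed. SMO at -1.11, BOC at -0.81, GAS1 at -0.51 and GLI2 at -0.46 lie below 0 by more than their intervals, and GLI3 at 0.27 lies above it.

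Divided by transcript length, the levels of the 9 genes spanned a wide range. On the scale of CPM per kilobase, in low glucose GAS1 was the highest at 33.5 ± 0.711, followed by SMO at 15.7 ± 0.921 and GLI3 at 14.3 ± 0.641. SMO and GLI3 did not differ beyond their spread there, since the lowest SMO library, 14.8, met the highest GLI3 library, 14.8. SUFU was at 5.15 ± 0.321, PTCH1 at 3.07 ± 0.198, BOC at 2.53 ± 0.133, GLI2 at 1.27 ± 0.0167, GLI1 at 0.349 ± 0.124 and HHIP at 0.193 ± 0.0496 CPM per kilobase, and no neighbours among these overlapped. The order changed in high glucose. GLI3 was there at 17.3 ± 1.84 CPM per kilobase, above SMO at 7.18 ± 0.682 in every library, while GAS1 at 23.4 ± 1.16 remained the highest. BOC at 1.36 ± 0.204 and GLI2 at 0.894 ± 0.189 CPM per kilobase overlapped in high glucose through HG1, where GLI2 was at 1.18, while in HG2 to HG4 GLI2 was at most 0.821 and BOC at least 1.09. Also overlapping were GLI1 at 0.221 ± 0.0251 and HHIP at 0.159 ± 0.0280 CPM per kilobase. GLI3 was the most abundant GLI factor in all 8 libraries on this scale and GLI1 the least.

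For each of the 7 genes with a mean of at least 5 CPM, the genes outside the pathway lists with the most similar log2 levels over the 8 libraries were found. The likeness is Pearson's r, a description that rests mostly on the gap between the groups and on libraries that all 9 genes share. For SMO the closest were ACAD9 (r = 0.998) and ASAP3 (r = 0.997), for BOC SH3RF3 (r = 0.997) and GLTP (r = 0.996), and for GAS1 SNPH (r = 0.999) and ERG28 (r = 0.997). For GLI2 they were COX6C (r = 0.994) and NDUFA8 (r = 0.994), which were also higher in HG1 than in HG2, HG3 and HG4. COX6C was at 165 to 172 CPM in low glucose, 155 CPM in HG1 and 116 to 119 CPM in HG2 to HG4. PCNT was among the closest to both GLI3 (r = 0.986) and PTCH1 (r = 0.959), beside ZNF699 (r = 0.993) for GLI3 and TTLL4 (r = 0.987) for PTCH1. SUFU had the least close neighbours, USP49 (r = 0.928) and SLFN12 (r = 0.927).

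The rest of the pathway was described from lists chosen by function. Among ligands and the proteins that release them, 13 of 15 genes were in the table and 8 were called, 7 lower and 1 higher. Beside these counts stand 24.8% and 22.0% of all genes, and the median difference of the list was -0.37. The ligands IHH and DHH were not in the table, and none of the 8 called genes is a ligand. SCUBE2 and SCUBE3, secreted proteins that help release the ligand, fell from 11.7 ± 0.659 to 3.60 ± 0.639 and from 12.4 ± 1.33 to 6.01 ± 0.674 CPM. DISP1, which exports the ligand, fell from 27.3 ± 0.517 to 16.7 ± 2.10 CPM, and the glypican GPC6 from 25.7 ± 0.219 to 12.6 ± 1.20 CPM. The ligand SHH, named outside the rule for list genes, was at 0.724 ± 0.0963 and 1.04 ± 0.342 CPM and did not pass (0.23, limma adjusted p = 0.171).

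Among the other receptors and partners of SMO, 4 of 17 genes rose and 4 fell, beside 22.0% and 24.8% of all genes. This list was thus called about as often as all genes (47.1% against 46.8%). Its median difference was -0.06. CDON, the co-receptor related to BOC, was among those that fell, at 39.3, 42.2, 42.5 and 40.1 CPM in LG1 to LG4 and 23.1, 32.8, 29.7 and 33.6 CPM in HG1 to HG4 (-0.46, limma adjusted p = 0.0132). It was named after its values were seen. The groups did not overlap for CDON, as for BOC and GAS1, beside 23.6% of all genes that were lower without overlap. MOSMO, a membrane protein that lowers SMO levels, rose from 10.7 ± 1.12 to 22.4 ± 2.38 CPM, and GRK2, a kinase that phosphorylates SMO, rose from 39.2 ± 0.938 to 56.0 ± 5.74 CPM.

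The list for GLI processing and degradation also holds other regulators of GLI factors, among them histone deacetylases and kinases such as DYRK1A. Its genes were called in 24 of 32 cases, 19 higher and 5 lower, beside 22.0% and 24.8% of all genes. The median difference of the list was 0.19. CUL3, the ubiquitin ligase scaffold that acts on GLI2 and GLI3, rose from 95.2 ± 2.59 to 138 ± 5.10 CPM, and the kinase DYRK1A from 117 ± 4.85 to 179 ± 9.33 CPM. The kinases STK36 and CSNK1E fell, from 43.1 ± 1.04 to 26.3 ± 1.96 and from 66.1 ± 2.50 to 47.7 ± 1.10 CPM.

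The primary cilium, where PTCH1 and SMO act, had, of the pathway lists described here, the highest share of genes moving in 1 direction. The table held 54 of its genes. Of these, 35 fell and 3 rose, beside 24.8% and 22.0% of all genes, with a median difference of -0.45. Without HG1 34 fell and 5 rose, beside 25.4% and 22.8% of all genes. All 54 had a mean of at least 1 CPM, whereas the shares over all genes count those under 1 CPM too. Over the 14372 genes at that level the median difference was -0.0417. In all, 24 fell by at least 0.5, as did 13.6% of all genes. By component, a split made after the values were seen, 6 of 7 BBSome genes, 9 of 11 genes of the intraflagellar transport complex B, 4 of 5 of complex A, 8 of 12 of the transition zone, 3 of 6 motor genes and 3 of 4 genes of the CPLANE complex fell, beside 24.8% of all genes, and 9 genes were in no component. BBS9 fell from 36.3 ± 0.8002 to 14.9 ± 0.826 CPM, BBS2 from 55.7 ± 1.71 to 32.9 ± 1.80 CPM, IFT140 from 17.5 ± 1.35 to 7.78 ± 0.419 CPM and the kinesin subunit KIFAP3 from 77.8 ± 2.41 to 44.2 ± 2.89 CPM.

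Genes reported in various tissues as GLI targets moved both ways, 15 of 36 higher and 5 lower, beside 22.0% and 24.8% of all genes, with a median difference of 0.07. Without HG1 14 were higher and 3 lower, beside 22.8% and 25.4% of all genes. WNT5A rose from 34.2 ± 1.48 to 80.1 ± 3.95 CPM, the cell cycle genes CCND1 from 56.4 ± 1.05 to 83.1 ± 2.84 and FOXM1 from 33.4 ± 1.48 to 58.7 ± 3.09 CPM, and the BMP antagonist GREM1 fell from 71.4 ± 2.26 to 32.0 ± 0.684 CPM. A list after the hallmark set of Hedgehog signaling, which holds PTCH1 and GLI1, had 9 of 35 genes higher and 14 lower. Beside these counts stand 22.0% and 24.8% of all genes. The median difference of this list was -0.07. Its most clearly changed genes were CRMP1 (20.8 ± 1.90 to 9.61 ± 0.295 CPM), HEY1 (86.0 ± 5.96 to 48.7 ± 1.92 CPM) and AMOT (115 ± 3.34 to 62.4 ± 6.40 CPM), all lower, and NKX6-1 (3.44 ± 0.281 to 8.31 ± 0.435 CPM), higher. Of 8 zinc finger genes related to the GLI family 3 rose and 2 fell, beside 22.0% and 24.8% of all genes. GLIS2 went from 52.6 ± 6.39 to 138 ± 15.95 CPM and ZIC2 from 9.69 ± 1.21 to 20.1 ± 1.56 CPM. ZIC4 fell from 9.29 ± 0.860 to 3.59 ± 0.397 and ZIC1 from 26.0 ± 1.04 to 19.3 ± 1.10 CPM.

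**Figure D4:**
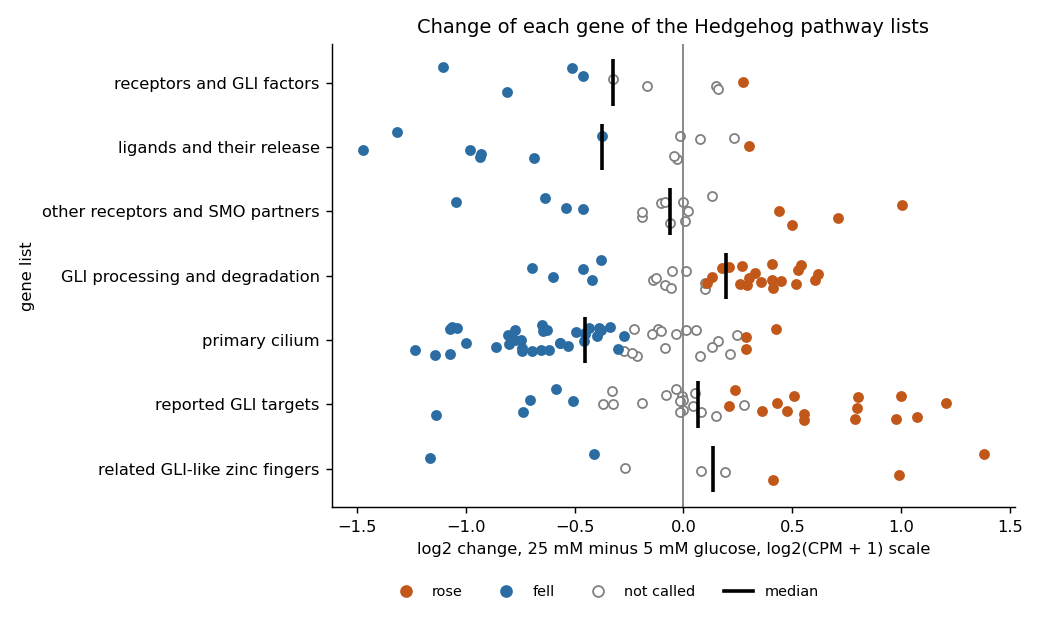
Difference of each gene, high minus low glucose on the log2(CPM + 1) scale (horizontal axis), in 7 lists (vertical axis), with points spread vertically within a list for visibility, filled where the adjusted p was under 0.05, and a bar at the median. Points of the cilium list lie mostly below 0, with a median of -0.45. Those of the list for GLI processing and degradation, which also holds other GLI regulators, lie mostly above 0, with a median of 0.19.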

How the data were processed

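The deposited file is 1 table with the CPM of each gene in each library. Per the labels it was made with edgeR on hg38, whereas the methods of the study, written first for tumors, describe stranded libraries, TopHat, hg19 and TMM scaling. The counting tool and its use of the strand are not given in the sources used here. Low values lay on multiples of 0.01 of a read, so the counts are fractional estimates and no count test was run. Of 21077 lines, 18 Y copies of pseudoautosomal genes, identical to the X copies, were left out, and all other 21059 genes were tested.

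Values were analysed as log2(CPM + 1) with limma 3.58.1 in R 4.3.3 (trend, 2-sided, no covariate), adjusted by Benjamini-Hochberg over all 21059 genes, and the procedure was tested on simulated data. Named in the text are all 9 genes, at most the 4 genes of each list with the smallest adjusted p among those with a mean of at least 1 CPM, and the 2 most similar genes of each of the 9 with a mean of at least 5 CPM. Outside these criteria, SHH, CDON, CFAP44 and the cell type markers are given with values, of which CDON was chosen after its values were seen. Some genes that meet these criteria are not reported here. The members and lists were chosen with earlier results of these data known, and the lists came from general knowledge. Transcript lengths, overlaps and shared words of 31 bases came from GENCODE release 44, positions and promoter windows from RefSeq on GRCh38.p14. Alternatives were pseudocounts of 0.1 and 0.5, 3 other scalings, removal of the length trend, minimum means of 1 and 5 CPM, a replicate block, voom weights on estimated reads, an exact permutation test and leaving out each library. Removal of the length trend without HG1 was added after seeing the data. Length trends were taken as a spline over log2 transcript length of each library against the mean of all, which also removes a trend shared by a group.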

Additional observations from a re-analysis of the deposited data

Results flagged for a closer look

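In 5 of the 78 groups of 4 libraries examined, the highest or lowest library was separated from the others by a share of the range of the group above Dixon's 95% critical value for 4 samples, and chance gives about 1 in 20, here 3.9. In 3 of the 5 the library was HG1. For GLI2 in high glucose HG1 was the highest (8.40 against 5.60 to 5.86 CPM) and its gap was 0.892 of the range. For GLI3 in high glucose HG1 was the lowest (122.7 against 152.3 to 155.6 CPM) with a gap of 0.912 of the range, and for the GLI2 to GLI3 ratio in high glucose HG1 was the highest with a gap of 0.969. In low glucose, CSNK1E had a gap of 0.944 and HEY1 a gap of 0.839 of the range. The cause was not tested.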

How the results depend on the processing

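SMO, GLI2, GAS1 and BOC kept their direction and their call under all alternatives run, and none of the 9 genes changed sign. GLI1 and HHIP stayed uncalled under the alternatives of the limma fit that gave them a value (a minimum of 5 CPM left both out), and the exact test of GLI1 alone gave -0.33 (exact permutation p = 0.0286). PTCH1 was called with the length trend removed (0.15), with the replicate block (0.15, adjusted p = 0.0438) and without HG1 with the length trend removed (0.15). Its range over fits without each library in turn was 0.11 to 0.21, called without HG1. SUFU was called with median-of-ratios scaling (0.20, adjusted p = 0.0283), equal column totals (0.18, adjusted p = 0.0458), the replicate block (0.16, adjusted p = 0.0103) and without HG1 with the length trend removed (0.16, adjusted p = 0.0420), and its range without each library was 0.13 to 0.19, called without LG3 or HG1. GLI3 was not called with quantile normalization (0.16) or the exact permutation test (0.27, p = 0.0857), and its range without each library was 0.24 to 0.35, called in 3 of the 8 fits. The GLI2 to GLI3 ratio differed by -0.48 with quantile normalization (exact permutation p = 0.114), by -0.74 with the replicate block, and by -0.94 to -0.66 without each library, at an exact p of 0.0571 where a low glucose library was left out. The SMO to PTCH1 ratio differed by -1.26 with the replicate block. The smallest p of that paired exact test is 0.125. The causes were not tested.

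No pairing of the samples by replicate number was seen in the values, and the labels state none. Same-numbered libraries had correlations of 0.069, -0.028, 0.014 and -0.040 in their deviations from the group means, and only replicate 1 correlated best with its own number. A pairing with a small effect could give such values too, so they cannot show that the samples were unpaired. With the replicate block 8921 genes were called, against 9849. Calls among the 9 genes ranged from 4 to 7 over 19 alternatives, with 7 (3 higher, 4 lower) without HG1, when 48.2% of all genes were called. Cilium calls ranged from 34 to 41, and calls over all genes from 8120 to 10156. The values of the 28 list genes that the naming rule selects kept direction and call in all 532 alternative fits. The rule picks genes by the smallest adjusted p of the main fit, so nothing is drawn from this about the lists. Depth limits GLI1 and HHIP, at 9 to 33 reads per library.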
